A study of Mus musculus with 2 samples.

Results

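The genes described here are 10 genes that mark muscle satellite cells or belong to the signalling that holds these stem cells in their niche: Pax7, Cdh15, Sdc4, Calcr, Chodl, Heyl, Hey1, Spry1, Notch3 and Fgfr4. They were chosen by name, with no threshold on a measured value but with earlier results of these data known, and all 10 were found among the 55536 annotated genes of the deposited tables. The data are total RNA-seq of whole gastrocnemius, the large calf muscle, from male mice of the strain B6CASTF1/J, the F1 hybrid of a laboratory and a wild-derived strain. The series has 1 group of 2 libraries, replicates 1 and 2, each made from 300 ng of total RNA to which synthetic ERCC control RNAs (spike-ins) had been added. The labels give an age of 18 to 20 months in one field (written there with the prefix PND) and list age as unknown in another. They call the libraries biological replicates and number the males differently, yet both carry the same donor record. No mutation, treatment or control group was part of the design, so no conditions could be compared.

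Satellite cells are the stem cells of skeletal muscle and lie between the fibre and its basal lamina. The transcription factor Pax7 defines them, M-cadherin (Cdh15) and syndecan-4 (Sdc4) sit on their surface, and the calcitonin receptor (Calcr) is known for keeping them quiescent. Notch ligands on neighbouring cells activate Notch receptors, whose cleaved intracellular part joins the DNA-binding protein RBPJ and switches on Hes and Hey repressors, and this signal holds satellite cells out of the cell cycle. FGF signalling pushes the other way, and Sprouty proteins such as Spry1 dampen it. None of these genes belongs to satellite cells alone: Notch3 and Heyl are also well known in the pericytes and smooth muscle of blood vessels.

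The summed expected counts came to 40795740 for replicate 1 and 44919441 for replicate 2. Levels are given as TPM, a share of all transcripts scaled to 1000000 per library, which corrects for gene length and can be compared between genes. The 7SL RNA genes Rn7s1 and Rn7s2 took 28.7% and 22.7% of all TPM, and nuclear protein-coding genes 45.8% and 43.8%. The tissue label held for fast muscle, with the fast myosin Myh4 at 15964 and 11005 TPM. Of the gene lists examined, slow fibre genes had the largest median difference between the libraries (log2 ratio 3.35): 10 of 10 were called higher in replicate 2, and the slow myosin Myh7 stood at 29.4 and 312 TPM. In whole tissue, fewer cells of a type and less RNA per cell cannot be told apart, and this holds for every gene below.

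Several of the results turn on where a transcript starts or which exons it holds, and the sequences behind them are shown first. Pax7 has 2 annotated transcripts, Pax7-201 and Pax7-202, that differ in the coding region by 6 bases at the start of exon 4 (chr4:139828705-139828710 in mm10, minus strand). The junction of exons 3 and 4 is shown in each, 5′ to 3′, with the extra bases in capitals.
Pax7-201: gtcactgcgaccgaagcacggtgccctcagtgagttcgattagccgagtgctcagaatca
Pax7-202: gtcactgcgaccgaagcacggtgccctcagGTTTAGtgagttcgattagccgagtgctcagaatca

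Calcr has an outer start region, with the starts of Calcr-202 (chr6:3764714) and Calcr-201 (chr6:3764658), and an inner start, used by Calcr-205. The outer start named below is that of Calcr-202, and the stretch shown for it ends before Calcr-201 begins. Calcr-203 and Calcr-204 begin at another start further in (chr6:3752974), which is not shown. The outer start lies 1084 nt upstream of the inner one, counted from the first base of Calcr-202 and of Calcr-205. The outer and inner starts are shown because reads were assigned to Calcr-205 and none to Calcr-201 or Calcr-202. Each stretch runs for 120 bases before the transcript and its first 30 bases, which are in capitals (RefSeq, GRCm38.p6, minus strand, chr6:3763601-3763750 for the inner and chr6:3764685-3764834 for the outer start). The inner stretch holds 68.7% G and C, and the outer 44.7%.
Calcr inner start: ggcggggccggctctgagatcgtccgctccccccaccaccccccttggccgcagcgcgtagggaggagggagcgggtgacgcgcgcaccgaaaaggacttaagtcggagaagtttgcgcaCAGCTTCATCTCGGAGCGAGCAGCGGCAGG
Calcr outer start: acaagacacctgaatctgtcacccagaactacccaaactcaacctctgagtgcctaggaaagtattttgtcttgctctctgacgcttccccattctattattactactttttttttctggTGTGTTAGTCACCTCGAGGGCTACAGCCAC

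Calcr-201 and Calcr-204 also hold a coding exon of 111 nt (chr6:3707489-3707599) that the other Calcr transcripts lack. It is shown in capitals between the last and first 15 bases of its neighbouring exons, because no read of either library was assigned to a transcript that has it.
Calcr alternative exon: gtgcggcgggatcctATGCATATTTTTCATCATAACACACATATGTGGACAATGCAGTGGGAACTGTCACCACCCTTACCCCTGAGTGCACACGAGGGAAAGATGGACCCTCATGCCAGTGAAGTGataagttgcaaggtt

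The start region of Spry1 (chr3:37639827-37639976, plus strand, GRCm38.p6) is shown because 2 of its transcripts begin 11 nt apart there. Capitals mark the first 30 bases of Spry1-203, and Spry1-201 begins inside them. The first exon of Spry1-201 ends 41 nt after that of Spry1-203. The stretch holds 67.3% G and C.
Spry1 start: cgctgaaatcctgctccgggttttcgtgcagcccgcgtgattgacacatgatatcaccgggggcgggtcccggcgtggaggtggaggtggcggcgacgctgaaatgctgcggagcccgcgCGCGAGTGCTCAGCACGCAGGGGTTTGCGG

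The last is the first exon of Heyl-202 (chr4:123239757-123239870, plus strand, mm10), a noncoding transcript of 374 nt inside the Heyl gene. It is shown because few reads assigned to it moved the level of Heyl in 1 library.
Heyl-202 first exon: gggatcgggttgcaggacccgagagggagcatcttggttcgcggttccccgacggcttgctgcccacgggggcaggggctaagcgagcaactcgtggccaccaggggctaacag

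The levels of the 10 genes spanned from 0.06 to 32.6 TPM. By mean level the order was Sdc4, Spry1, Cdh15, Notch3, Chodl, Heyl, Hey1, Pax7, Fgfr4 and Calcr. Sdc4 stood apart from Spry1, Cdh15 from Notch3, Notch3 from Chodl, Hey1 from Pax7 and Fgfr4 from Calcr, in that the ranges of both libraries did not overlap. The other neighbours overlapped: Spry1 and Cdh15, then Chodl, Heyl and Hey1, then Pax7 and Fgfr4. The 2 libraries gave different orders inside each of those groups, and 7 of the 10 genes reached 1 TPM in both. Pax7, the gene that defines the cell, was the third lowest of the 10.

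**Figure D1:**
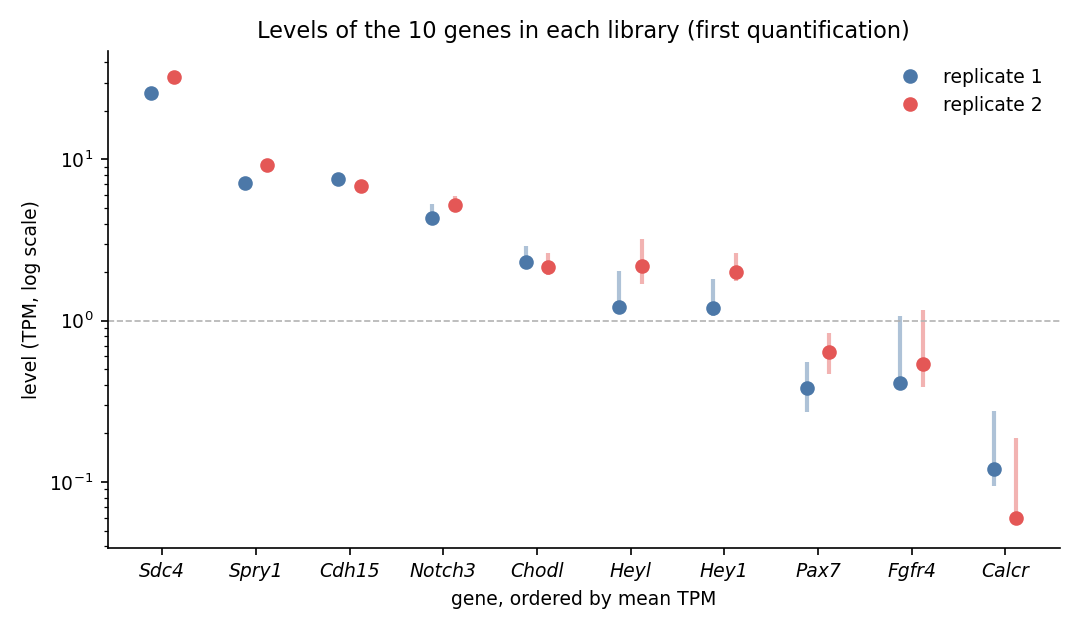
Level of each gene (TPM, log axis) in replicates 1 and 2, ordered by mean. Vertical lines are the deposited credibility intervals, and the dashed line marks 1 TPM. Sdc4 is highest in both libraries, and Pax7, Fgfr4 and Calcr lie under the line.

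For the comparison of the libraries, rounded expected counts were scaled by TMM and tested per gene with a 2-sided exact binomial test, adjusted by Benjamini-Hochberg over all 14959 genes whose mean count was 10 or more. This test compares these 2 libraries and covers counting error only, so its p-values say nothing of a condition or of the spread between mice. Ratios are replicate 2 to replicate 1 with a 95% exact counting interval. A gene was called different at an adjusted p below 0.05 and at least 2-fold. None of the 9 genes tested was called (0 by the exact binomial test and 0 by edgeR's exact test), where 6.18% of all genes tested were called by the first (4.47% higher in replicate 2 and 1.70% higher in replicate 1) and 1.82% by the second. At an unadjusted p below 0.05 there were 7. The share of all genes at that threshold is not given here, so this count and those of the lists below have no background. That share cannot be below the 35.4% given next. Without a minimum fold, a rule chosen after seeing the data, 6 of 9 passed, 5 higher in replicate 2 and 1 higher in replicate 1, beside 35.4% of all genes (18.6% and 16.8%). The median log2 ratio was 0.26 over the 9 genes and 0.0053 over all genes tested. Scaled on the spike-ins these medians were 0.48 and 0.23, and the share of all called genes that were higher in replicate 2 went from 72.4% to 86.4%.

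**Figure D2:**
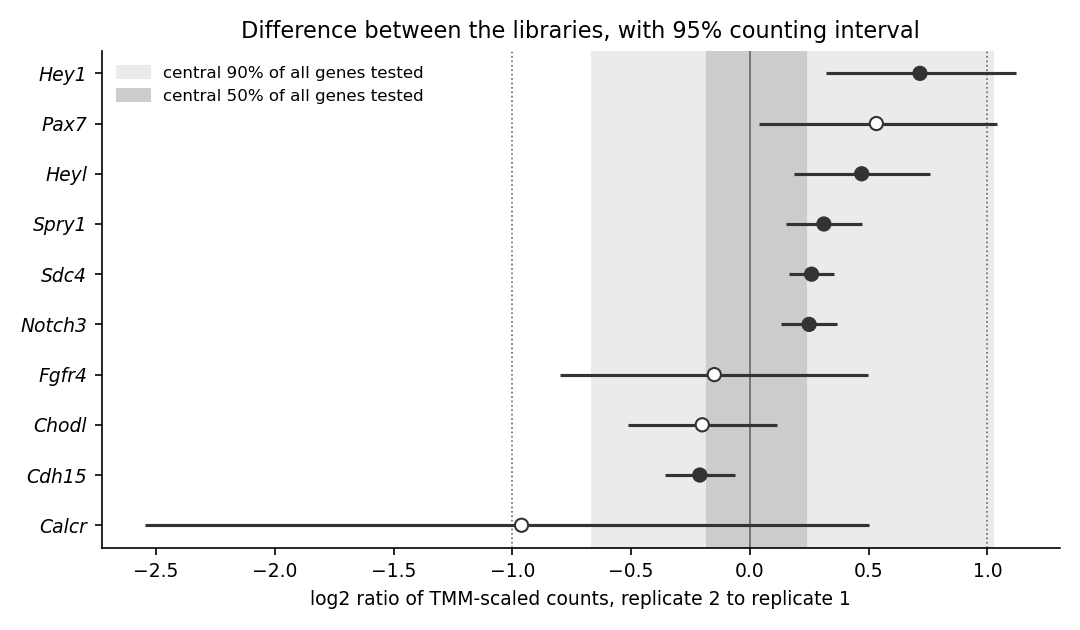
Log2 ratio of TMM-scaled counts, replicate 2 to replicate 1, for each gene with its 95% counting interval. Filled points passed an adjusted p of 0.05, the dotted lines mark 2-fold, the bands run from −0.67 to 1.02 (light) and from −0.18 to 0.24 (dark) over all genes tested. Every point lies between the dotted lines, and the intervals of Hey1, Pax7 and Calcr cross one of them.

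Among the genes of satellite cell identity, Pax7 (ENSMUSG00000028736.13, chr4:139737062-139833528, minus strand) had 56 counts in replicate 1 and 92 in replicate 2. Its level was 0.38 and 0.64 TPM (0.51 ± 0.184, SD, n = 2). The ratio of scaled counts was 1.45 (1.03 to 2.05), and with an adjusted p of 0.0814 in the exact binomial test it did not pass. Pax7-201 held 72.9% and 62.1% of the gene's TPM, and Pax7-202, which has the 6 extra bases, 27.2% and 37.9%. In counts these shares rest on 5.34 and 13.5 reads for Pax7-202. The second quantification gave Pax7-202 26.0% and 31.4%, so Pax7-201 led in each library by each method.

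Cdh15, the adhesion molecule between satellite cell and fibre, was more than 10 times as abundant as Pax7 per length in both libraries. Cdh15 (ENSMUSG00000031962.6, chr8:122847966-122867397, plus strand) had 756 and 742 counts, or 7.60 and 6.81 TPM (7.21 ± 0.559, SD, n = 2). It was the only one of the 9 to pass on the side of replicate 1, with a ratio of 0.864 (0.780 to 0.958) and an adjusted p of 0.0173 by the exact binomial test, but its log2 ratio changed sign from −0.21 to 0.013 when scaled on the spike-ins. The gene has 1 annotated transcript. It lies within the span of Gm20388, a gene model on the same strand with 632 and 588 counts. This overlap was taken from the gene spans alone.

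Sdc4, a heparan sulphate proteoglycan that serves as a co-receptor for growth factors, was the most abundant of the 10. Sdc4 (ENSMUSG00000017009.3, chr2:164424247-164443887, minus strand) had 1601 and 2177 counts, or 25.7 and 32.6 TPM (29.2 ± 4.84, SD, n = 2). That put it above 91.0% and 92.6% of nuclear protein-coding genes. Replicate 2 was higher by a ratio of 1.20 (1.12 to 1.28, adjusted p = 3.1e-07 by the exact binomial test). Among the syndecans, Sdc4 held 78.7% and 77.9% of the summed TPM, Sdc3 11.3% and 10.5%, Sdc2 7.46% and 8.55%, and Sdc1 2.57% and 3.08%. The order of the 4 syndecans was the same in both libraries. The noncoding Sdc4-202, of 797 nt, begins 701 nt upstream of the coding Sdc4-201 and took 23.4% and 25.7% of the gene's TPM. Its share of the gene's counts was smaller, 8.30% and 9.30% (133 and 202 counts), since Sdc4-201 is longer at 2458 nt.

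Calcr (ENSMUSG00000023964.15, chr6:3685680-3764714, minus strand) was the lowest of the 10, with 12 and 7 counts, or 0.12 and 0.06 TPM (0.09 ± 0.0424, SD, n = 2). Its mean count fell below the minimum for testing, and the ratio of 0.514 had an interval of 0.171 to 1.42. Of these counts, 10.1 and 7 were assigned to Calcr-205, which begins at the inner start shown above. Calcr-203, which begins further in, had 1.88 and 0, and the second quantification gave it 34.3% and 21.4% of the gene's TPM. Calcr-201, Calcr-202 and Calcr-204 were at 0 in both libraries and both quantifications. If every Calcr transcript held the exon of 111 nt, 0.714 and 0.416 reads would be expected on it from its length and a read of 100 nt, so its presence was not detectable at this depth. The same small number of reads limits the choice between the starts.

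Chodl, or chondrolectin, is a membrane lectin found among the genes high in quiescent satellite cells. Chodl (ENSMUSG00000022860.15, chr16:78930948-78951733, plus strand) had 173 and 171 counts, or 2.31 and 2.16 TPM (2.24 ± 0.106, SD, n = 2). The ratio of 0.870 (0.700 to 1.08) did not pass (adjusted p = 0.365, exact binomial test), and its log2 value turned from −0.20 to 0.023 when scaled on the spike-ins. Chodl-201 held 87.2% and 76.9% of the gene's TPM, and Chodl-202, also coding, 11.2% and 14.4%.

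The list of 17 other satellite cell and myoblast genes gives the surroundings of these 5 genes. Of the 16 tested, none was called by the exact binomial test or by edgeR's exact test, 8 had an unadjusted p below 0.05, and without a minimum fold 4 passed higher in replicate 2 and 3 higher in replicate 1. Their median log2 ratio was 0.14. The most abundant were genes that many cell types share: Itgb1, the common integrin beta chain, at 63.9 and 72.2 TPM, Cav1, a caveolin of endothelium and fibre membranes, at 42.1 and 58.2 TPM, and Itga7, the laminin receptor chain of fibres and satellite cells, at 29.4 and 25.6 TPM. The 2 myogenic factors of committed satellite cells and myoblasts were far apart in level. Myf5 was at 0.83 and 1.11 TPM, near Pax7, and Myod1 at 8.66 and 6.55 TPM, near Cdh15. Pax3, the paralogue of Pax7, had 2 and 3 counts.

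Genes of activated, dividing or fusing myoblasts were low, apart from Cdkn1c, Myog and Myh3. Of the 10 listed, 5 could be tested, and 2 were at 0 in replicate 1 and 1 in replicate 2. The proliferation gene Mki67 stood at 0.06 TPM in both libraries, and Top2a at 0.09 and 0.04 TPM. Myog, the differentiation factor, was called higher in replicate 1 (545 and 212 counts, ratio 0.343), and Myh3, the embryonic myosin, higher in replicate 2 (559 and 1366 counts, ratio 2.15), both by the binomial test, while edgeR's exact test called 0 of the list. The most abundant of the list by mean, the cell cycle inhibitor Cdkn1c, was at 11.6 and 9.12 TPM.

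Among the Notch genes, the receptor Notch3 and the repressors Heyl and Hey1 were all higher in replicate 2, by less than 2-fold. Notch3 (ENSMUSG00000038146.8, chr17:32120820-32166852, minus strand) had 1017 and 1373 counts, or 4.34 and 5.25 TPM (4.80 ± 0.643, SD, n = 2). Its ratio was 1.19 (1.10 to 1.29, adjusted p = 0.000152 by the exact binomial test). Notch3-201, of 8016 nt, took 93.1% and 95.3% of the gene's TPM. In the first quantification the rest went to Notch3-202 in replicate 1 alone (5.81 counts) and to Notch3-203 in replicate 2 alone (4.69 counts). The second quantification gave Notch3-202 none in either library and Notch3-203 12.7% and 7.76%. The antisense gene Gm17276 overlaps Notch3 and had 4 and 2 counts.

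The 4 Notch receptors were of similar level. Notch3 held the largest share of their summed TPM, 29.3% and 31.4%, followed in replicate 1 by Notch4 (27.1%), Notch2 (22.2%) and Notch1 (21.4%), and in replicate 2 by Notch1 (25.3%), Notch4 (22.4%) and Notch2 (20.9%). Without a minimum fold 3 of the 4 passed, all higher in replicate 2: Notch1, Notch3 and Notch4. Their median log2 ratio was 0.25. Notch4, which is known from endothelium, was lower in TPM in replicate 2 (4.01 and 3.75) although its scaled counts were higher (ratio 1.19).

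Heyl is a basic helix-loop-helix repressor and a direct target of Notch in satellite cells and vessel walls. Heyl (ENSMUSG00000032744.4, chr4:123233556-123249875, plus strand) had 169 and 266 counts, or 1.21 and 2.19 TPM (1.70 ± 0.693, SD, n = 2). The ratio of scaled counts was 1.39 (1.14 to 1.69, adjusted p = 0.00366 by the exact binomial test), but the ratio of the gene's TPM was 1.81. The gap came with Heyl-202, whose first exon is shown above: 4.66 counts in replicate 2, none in replicate 1, made up 22.3% of Heyl TPM there (0.49 TPM). The coding Heyl-201 alone was at 1.21 and 1.70 TPM, a ratio of 1.40. The second quantification assigned nothing to Heyl-202 and gave a ratio of 1.28 for the gene. There 1 read of replicate 1 went to another short transcript, Heyl-203 of 623 nt, and made up 7.46% of the gene's TPM. Heyl-201 alone was at 1.64 and 2.27 TPM in that quantification. So replicate 2 was higher by each of these measures, and the size depended on a handful of reads on short transcripts.

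Hey1, the paralogue of Heyl, had the largest ratio of the 9 genes tested. Hey1 (ENSMUSG00000040289.8, chr3:8663359-8667256, minus strand) had 82 and 153 counts, or 1.20 and 2.00 TPM (1.60 ± 0.566, SD, n = 2). Its ratio of 1.64 (1.25 to 2.18, adjusted p = 0.00110 by the exact binomial test) has an interval that reaches past 2-fold. Hey1-201 held 88.1% and 93.3% of the gene's TPM in the first quantification and 65.0% and 75.4% in the second, where the intron-retaining Hey1-202 took most of the rest.

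Heyl and Hey1 were the middle members of the Hes and Hey group. Of the summed TPM of 7 such genes, Hes1, a broadly expressed target, held 35.5% and 43.8%, Hes6, a family member high in differentiating myoblasts, 35.6% and 20.2%, Heyl 13.5% and 17.5%, Hey1 13.4% and 15.9%, and Hey2 2.01% and 2.47%. Hes5 had no count in either library in the first quantification, and 0.317% of the group's TPM in replicate 1 in the second. Of the 8 listed Notch targets 6 were tested, and 3 passed without a minimum fold, all higher in replicate 2: Hes1 (128 and 236 counts, log2 ratio 0.70), Hey1 (0.71) and Heyl (0.47). The median log2 ratio of the list, Hey1 and Heyl included, was 0.58. The other tested targets were spread: Hey2 had a log2 ratio of 0.69 on 14 and 26 counts, and Hes6 went the other way (−0.40). Nrarp, a feedback inhibitor at 3.47 and 3.61 TPM, had a log2 ratio of 0.0053.

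The rest of the pathway did not share that median. Of the 5 ligands tested, Dlk1, a noncanonical ligand, was called higher in replicate 1 (41 and 16 counts, ratio 0.344). Jag2 was the most abundant ligand at 9.38 and 9.31 TPM, followed by Jag1 at 2.62 and 2.86 TPM and Dll4, the endothelial ligand, at 1.79 and 1.89 TPM. Dll1, the ligand known from myogenic cells and fibres, was at 1.46 and 2.00 TPM, and Dll3 had no counts in the first quantification (0.115 and 0.108 TPM in the second). Of 24 genes for processing and modulation that were tested, 1 was called, the fringe glycosyltransferase Mfng (35 and 86 counts, ratio 2.16, higher in replicate 2, not called in the second quantification), and without a minimum fold 4 passed on the side of replicate 2 and 3 on that of replicate 1. The most abundant of them were the ubiquitin ligases Neurl1a (65.5 and 55.3 TPM) and Mib1 (41.3 and 58.1 TPM) and the gamma-secretase subunit Psenen (57.4 and 55.6 TPM). Of 8 nuclear effectors, 3 passed without a minimum fold, all higher in replicate 2, and RBPJ itself (Rbpj) was at 7.89 and 7.58 TPM. The coactivator Snw1 was at 19.8 and 20.5 TPM, and the corepressor Spen at 9.87 and 9.22 TPM.

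Over all Notch lists without Notch3, Heyl and Hey1, 44 genes were tested, 1 was called in each direction by the binomial test and 0 by edgeR's exact test, and the median log2 ratio was 0.013. Without a minimum fold 10 passed on the side of replicate 2 and 4 on that of replicate 1. The medians of the ligands (−0.02) and of processing and modulation (−0.09) were below 0 under TMM and turned positive, 0.20 and 0.14, when scaled on the spike-ins, which moved the median of all genes tested by 0.22.

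**Figure D3:**
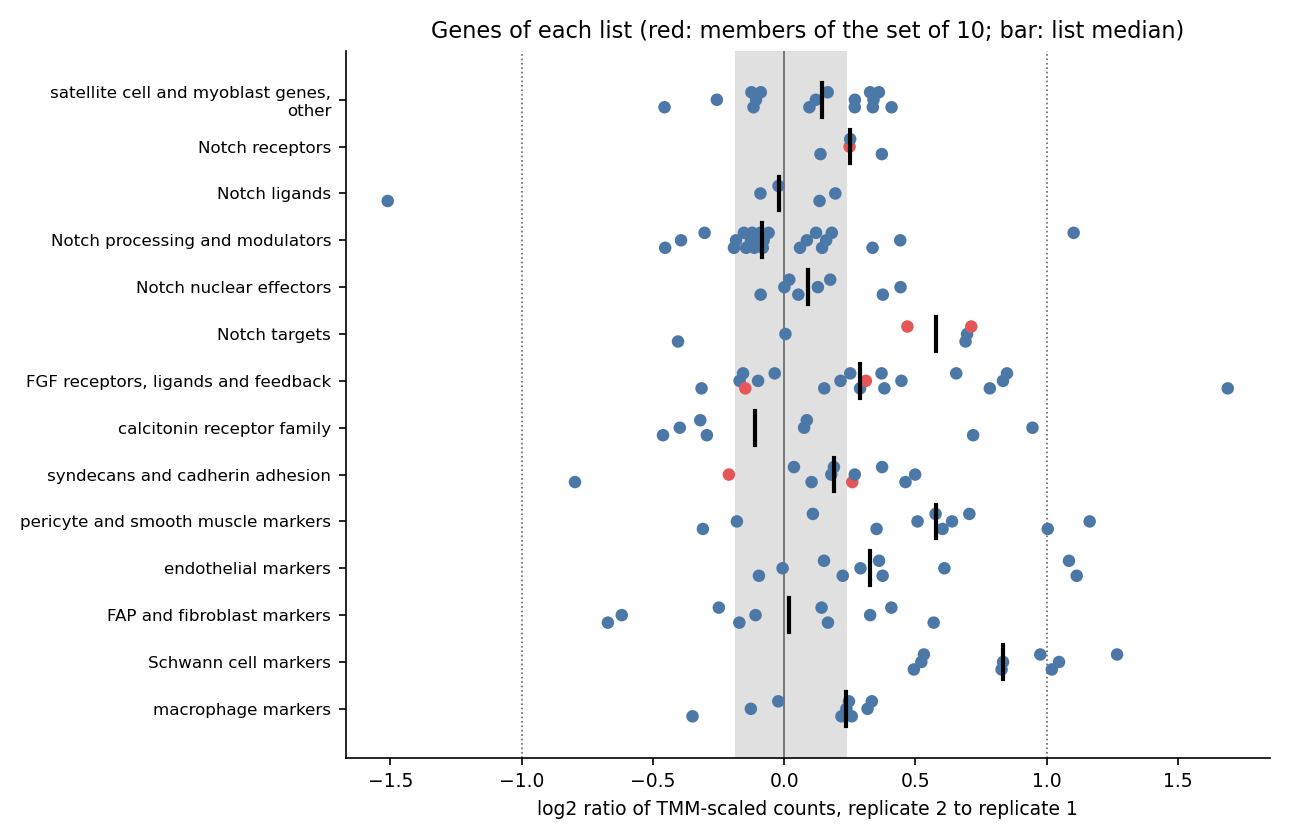
Log2 ratio of TMM-scaled counts, replicate 2 to replicate 1, for each tested gene of 14 lists. Black bars are list medians, the grey band runs from −0.18 to 0.24 over all genes tested, and the dotted lines mark 2-fold. Medians lie furthest to the right for Notch targets (0.58, Hey1 and Heyl included), pericyte and smooth muscle markers (0.58) and Schwann cell markers (0.83). Those of Notch ligands and Notch processing lie inside the band.

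Most markers of the vessel wall were, like Notch3, Heyl and Hey1, higher in replicate 2. Of 11 pericyte and smooth muscle markers, 8 passed higher in replicate 2 and 2 higher in replicate 1 without a minimum fold, with a median log2 ratio of 0.58 and a summed level of 191 and 230 TPM. Kcnj8, a pericyte potassium channel subunit (96 and 245 counts), and Cnn1, the smooth muscle calponin (34 and 78 counts), were called by the binomial test, against 1 of the list in the second quantification or with a mean count of at least 100 and 0 by edgeR's exact test. The most abundant were Rgs5 (59.6 and 79.2 TPM), Abcc9 (60.0 and 50.8 TPM), which muscle fibres also make, and the smooth muscle actin Acta2 (24.8 and 34.6 TPM). None of the 11 was at 0.

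Endothelial markers stood higher in replicate 2 as well. Of 10 such markers 7 passed, all on that side, with a median of 0.33 and a summed level of 67.8 and 88.5 TPM. Kdr (682 and 1644 counts) and Cldn5 (77 and 190 counts) were called by the binomial test, against 1 of the list in the second quantification and 0 by edgeR's exact test. By mean level Cdh5, Egfl7 and Pecam1 were the most abundant. The part of vessel cells in the values of Notch3, Heyl and Hey1 was not tested.

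Other cell types were measured in the same way. Of 9 Schwann cell markers 8 passed higher in replicate 2, and Prx, Sox10 and Ncmap were called (median 0.83, summed 31.2 and 46.0 TPM). The count of 3 called was 6 on spike-in scaling, 1 with a mean count of at least 100 and 0 by edgeR's exact test. Of 9 macrophage markers 2 passed on that side and 1 on the other (median 0.24, summed 46.2 and 52.5 TPM), led in level by Lyz2, C1qc and C1qa. Markers of fibro-adipogenic progenitors, the mesenchymal cells of muscle, split into 5 on each side (median 0.017, summed 572 and 557 TPM), led by Gsn, Dcn and Col3a1. No marker of these 3 lists was at 0, and their part in the values of the 10 genes was not tested.

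Of the FGF side, the receptor Fgfr4, known from muscle progenitors, was low. Fgfr4 (ENSMUSG00000005320.9, chr13:55152640-55168759, plus strand) had 42 and 43 counts, or 0.41 and 0.54 TPM (0.475 ± 0.0919, SD, n = 2). The ratio of scaled counts was 0.902 (0.575 to 1.41, adjusted p = 0.806 by the exact binomial test), whereas the gene's TPM gave 1.32. As in Heyl, a short transcript stood between the measures: Fgfr4-203, of 438 nt, had 2.04 counts in replicate 2, none in replicate 1, and made up 32.1% of the gene's TPM there. The coding Fgfr4-201 alone was at 0.41 and 0.37 TPM. The direction for Fgfr4 thus changed with the measure, and spike-in scaling turned it too (log2 ratio −0.15 and 0.073). Of the 4 FGF receptors, Fgfr1 held 87.9% and 84.6% of the summed TPM, Fgfr3 9.35% and 11.1%, and Fgfr4 1.64% and 2.51%.

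Spry1, the feedback inhibitor that satellite cells need to return to quiescence, was higher in replicate 2. Spry1 (ENSMUSG00000037211.12, chr3:37639947-37644598, plus strand) had 542 and 764 counts, or 7.16 and 9.22 TPM (8.19 ± 1.46, SD, n = 2). Its ratio was 1.24 (1.11 to 1.39, adjusted p = 0.000556 by the exact binomial test). It shared the Sprouty total about evenly with Spry2: Spry1 held 48.1% and 48.8%, Spry2 44.3% and 43.1%, and Spry4 7.59% and 8.05%. The antisense gene Gm42922 overlaps the start of Spry1 and had 12 and 18 counts.

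The leading Spry1 transcript was not settled. In the first quantification Spry1-201 held 37.1% and 63.4% of the gene's TPM and Spry1-203 52.1% and 28.6%, so the lead passed from one to the other between the libraries. The second quantification gave Spry1-201 38.8% and 24.1% and Spry1-203 38.5% and 56.0%, the opposite direction on the same reads. The 2 transcripts have the starts 11 nt apart that are shown above. Their sum moved less: Spry1-202 held 10.8% and 8.03% in the first quantification and 22.7% and 19.9% in the second.

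**Figure D4:**
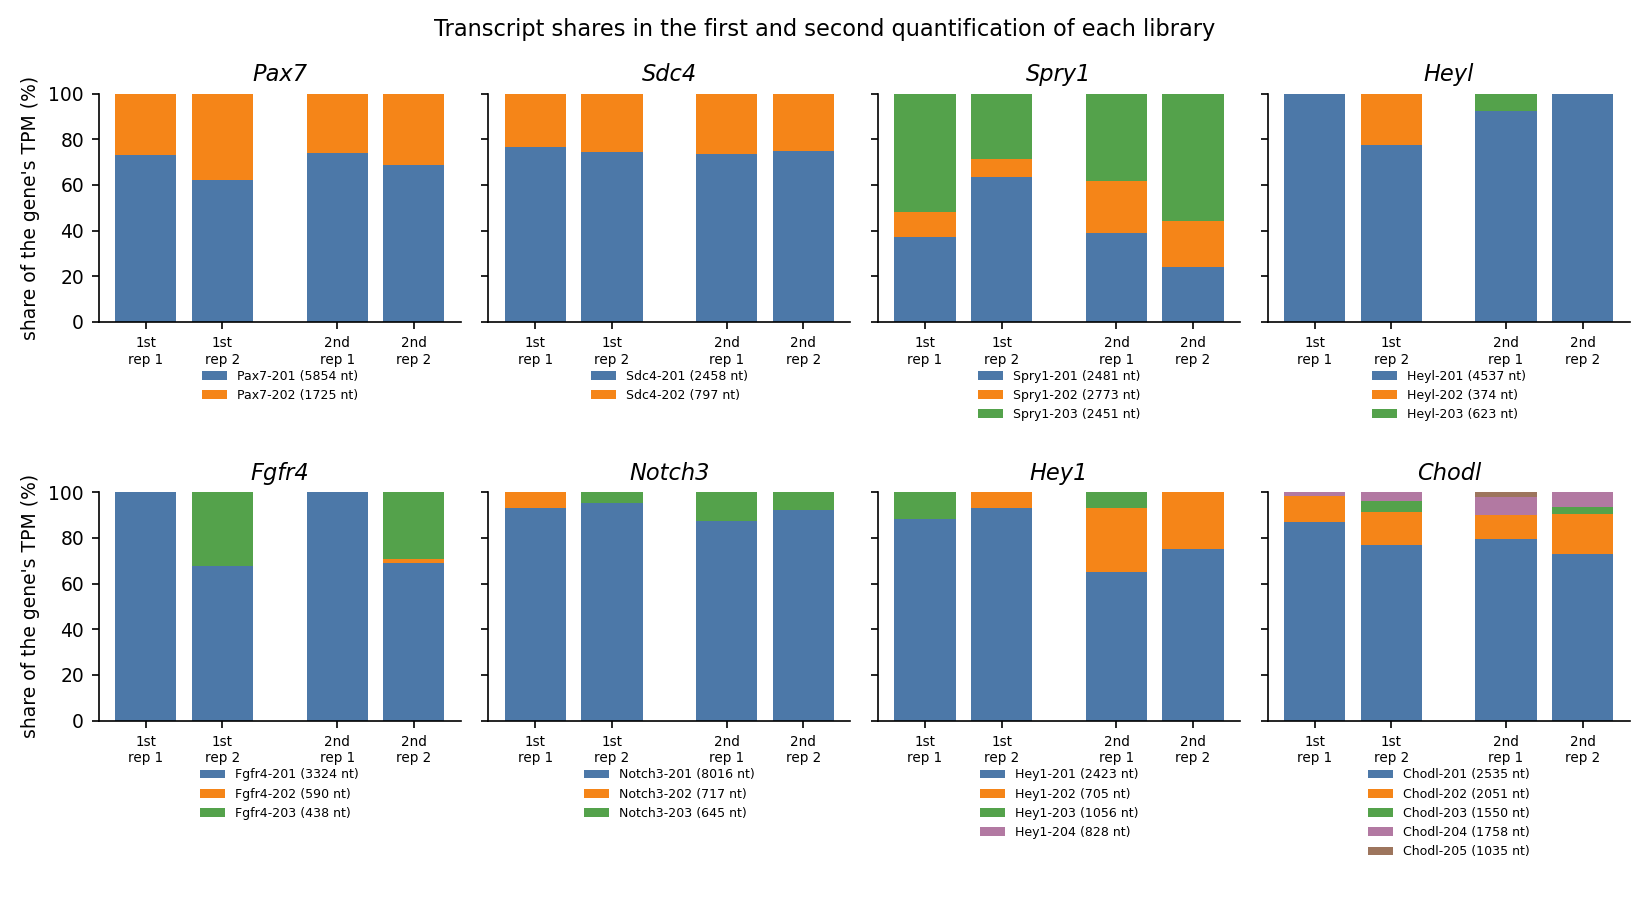
Share of each gene's TPM (percent) held by its transcripts, for 8 genes with several transcripts, in the first and second quantification of replicates 1 and 2. The shares of Pax7 and Sdc4 stay similar over the bars, those of Spry1-201 and Spry1-203 change places, and Heyl-202 appears in 1 bar only.

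The FGF list, Fgfr4 and Spry1 included, held more genes higher in replicate 2 than in replicate 1. Of 19 tested, 1 was called, the growth factor Fgf1 (493 and 1808 counts, ratio 3.23; 4 of the list on spike-in scaling), and without a minimum fold 10 passed on the side of replicate 2 and 1, Fgfr1, on that of replicate 1. Their median log2 ratio was 0.29. By mean level the most abundant were Fgfr1 at 22.0 and 18.2 TPM, Fgf1 at 6.22 and 18.8 TPM and the decoy-like receptor Fgfrl1 at 6.61 and 12.6 TPM. In replicate 2 Fgf1 stood slightly above Fgfr1 in the first quantification and below it in the second (22.3 and 27.1 TPM). Fgf2, a mitogen of satellite cells, was at 1.94 and 2.40 TPM, and Fgf6, a factor made by muscle, at 0.83 and 1.49 TPM.

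The partners of Calcr and Sdc4 were measured as well. Calcrl, the related receptor of vessels, was at 4.91 and 4.69 TPM, above Calcr in both libraries. Of the calcitonin family list 8 were tested and none was called by either exact test, with 5 at an unadjusted p below 0.05. Without a minimum fold Ramp1 passed on the side of replicate 2, and Ramp2, Col5a1, Col5a2 and Col5a3 on that of replicate 1. Collagen V is known as a ligand that engages Calcr on satellite cells, and its 3 chains stood at 6.15 and 4.44 (Col5a1), 4.77 and 3.88 (Col5a2) and 8.05 and 6.08 TPM (Col5a3). The most abundant of the list were Ramp2 (14.4 and 13.1 TPM), Ramp1 (5.78 and 9.82 TPM) and Col5a3. The median log2 ratio of the list was −0.11 and turned to 0.11 when scaled on the spike-ins.

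In the list of syndecans and cadherin adhesion genes 11 were tested and none was called by either exact test, with 9 at an unadjusted p below 0.05. Without a minimum fold 5 passed on the side of replicate 2 and 2 on that of replicate 1, Cdh15 and Cdh4, another classical cadherin (12.4 and 7.05 TPM). The most abundant were the catenin Ctnnb1 (85.2 and 91.4 TPM), plakoglobin (Jup, 25.4 and 30.9 TPM) and Sdc4 itself. Of 15 tested niche matrix and growth factor genes none was called by either exact test, with 12 at an unadjusted p below 0.05. There 4 passed on the side of replicate 2 and 8 on that of replicate 1 (median −0.08, and 0.14 on spike-in scaling). Basement membrane genes led that list: Col4a1 at 33.4 and 34.4 TPM, Lamc1 at 23.2 and 22.0 TPM and Col4a2 at 19.2 and 21.2 TPM. Hgf, the activating factor of satellite cells, had 10 and 12 counts, and Wnt7a had none.

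Promoter windows of the RefSeq table (GRCm38.p6, 250 bases before to 50 after the annotated start) were there for 8 of the 10 genes, with 2 for Calcr, and not for Heyl and Hey1. The core of the RBPJ site, TGGGAA or its reverse complement, was found in 1 of the 9 windows, that of Chodl at −194, and in 25.6% of all 32817 windows. The E-box CANNTG, the site of myogenic factors, was in 5 of 9 windows and in 72.3% of all. The N-box CACNAG, which Hes repressors bind, was in 5 of 9 and in 42.5% of all, and TATAAA in 0 of 9 and in 13.6% of all. Both strands were searched, and the motifs can overlap each other. The windows of Pax7, Cdh15, Calcr, Fgfr4 and Notch3 held the N-box, and those of Spry1, Calcr, Cdh15, Fgfr4 and Chodl the E-box. For Calcr both motifs lay in the window of the outer start, and neither Calcr-201 nor Calcr-202 had reads assigned. The window of the inner start held neither.

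The second quantification, made from the same reads, gave higher TPM for each of the 10 genes, by 1.19 times for Heyl to 1.69 times for Calcr. Over 10063 nuclear protein-coding genes the median of that ratio was 1.36, so the set moved with the rest. Of 31 annotated transcripts of the 10 genes, 24 had counts in the first quantification.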

How the data were processed

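Total RNA of 2 gastrocnemius libraries in 1 group was sequenced. Assembly mm10 and GENCODE M21 are named per the submitters' processing notes and labels. The aligner and the software that made the values are not given in these sources. The authors made a first quantification (genes and transcripts) from reads aligned to the transcriptome, and a second, of transcripts only, straight from the reads, per the list of files deposited with each sample. The deposited expected counts and the estimated counts of the second table are reads per transcript or gene, with ambiguous reads shared out, per the file headers. TPM, as deposited, divides by effective length and sums to 1000000 over all entries, spike-ins included. The deposited percent of isoform use, per the file headers, states how much of a gene's TPM a transcript holds. The deposited credibility bounds of TPM, entered as signal, have no stated level and surround a posterior mean, so a TPM can lie near their edge.

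Expected counts were rounded. Library sizes used TMM (edgeR 4.0.16, R 4.3.3), with DESeq2 1.42.0 size factors, total counts and spike-in counts as alternatives. The 2-sided exact binomial test (scipy 1.17.1) covered genes whose mean count was 10 or more. Log2 ratios use scaled counts + 0.5, and intervals leave that out. Intervals cover counting error only, and reads without molecular identifiers are not independent molecules. edgeR's exact test with a common dispersion took that dispersion from the difference it tests, so its p-values are not printed. Its quasi-likelihood test was not run, since 1 group leaves no contrast. The binomial script was tested on simulated data. Transfer RNA, phiX and spike-in entries were left out of the tests. Likeness of pattern between genes was not ranked, since 2 libraries give 1 difference per gene. Named genes are all 10 members, the 3 most abundant of each other list, each called gene, and genes set in a ratio with a member; Dll1, Hes6, Fgf2, Fgf6, Mki67, Top2a, Calcrl, Myf5, Myod1, Pax3, Hgf, Cdh4, the collagen V chains and genes with no counts were named after their values were seen. Not every gene under this rule is reported here. The 10 genes, the 18 other lists and the tests were chosen with earlier results of these data known. Protein sequences were not used here.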

Additional observations from a re-analysis of the deposited data

How the results depend on the processing

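The count of genes called among the 10 was 0 under each of 7 other settings (DESeq2 size factors, total counts, spike-in scaling, no count filter, a mean count of at least 100, the second quantification, and edgeR's exact test). It was 6 with no fold minimum, an alternative added after seeing the data. Most of the 7 settings had little room to move the 0. A stricter count filter leaves each ratio as it is, and dropping the filter added only Calcr (log2 ratio −0.91). Spike-in scaling moved the median of all genes by 0.22, while the largest log2 ratio of the 9 tested was 0.71 (Hey1). The dispersion in edgeR's exact test came from the difference it tests. Over all genes tested, 924 were called, against 272 with edgeR's exact test and 367 with a mean count of at least 100. Of the log2 ratios of the single genes under the other scalings, offsets and quantification, 62 kept their direction and 6 changed sign: spike-in scaling gave Cdh15 0.013, Chodl 0.023 and Fgfr4 0.073, and for Fgfr4 TPM + 0.5 gave 0.19, TPM + 0.1 gave 0.33 and TPM + 5 gave 0.034. For Fgfr4 the leading transcript alone gave 0.41 and 0.37 TPM, lower in replicate 2. Of the mean levels, 22 moved by less than 1 SD and 18 by more, all upward, under rescaling to protein-coding genes or in the second quantification. Apart from Pax7 and Heyl in the second quantification, those under 1 SD were all means with 1 library left out. With 2 libraries such a mean always lies within 1 SD, so it shows no stability. Of the leading transcript shares 24 held and 3 moved, those of Hey1, Spry1 and Notch3 in the second quantification. The shares that held include all those with 1 library left out, which likewise lie within 1 SD whatever the data. Of the list medians 98 held and 2 moved, and of the list counts 87 held and 13 moved. A median that changed sign could still count as held. On spike-in scaling this was so for Notch ligands (−0.02 to 0.20), Notch processing (−0.09 to 0.14), the calcitonin family (−0.11 to 0.11) and niche matrix (−0.08 to 0.14). The ligand median also turned, to 0.057, with a mean count of at least 100. The 2 that moved, Notch receptors and nuclear effectors on spike-in scaling, kept their sign. No paired analysis was possible because the series has 1 group. Depth limits Calcr, Pax7 and Fgfr4, each under 100 counts a library.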
